A study of Mus musculus with 2 samples.

Results

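The proteasome subunit genes of mouse gastrocnemius muscle were taken as every annotated gene named Psma to Psmg with a number. The annotation holds 48 such genes, and 46 of them had reads, out of 14900 annotated genes with reads. Reads were summed per gene over all transcript models, and 44 of the 46 reached the minimum of 10 reads over both libraries that was set for a test. Psmb9 and Psmg3, with 4 reads in replicate 1 and 2 reads in replicate 2 each, stayed under it. Psma8 and Psmb11 had 0 reads in each library, which allows up to 3 reads, or 1.99 CPM in replicate 1 and 2.56 CPM in replicate 2 (CPM, reads per 1000000 reads of the library).

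The gastrocnemius, the large calf muscle, came from male B6CASTF1/J mice, a hybrid of a C57BL and a CAST strain, aged 18 to 20 months. Long reads of complementary DNA were counted from 2 libraries, replicate 1 and replicate 2. The input of either was 2 µg of total RNA, to which SIRV and ERCC (Ambion mix 1) controls had been added. The labels number them as biological replicates. Their biosamples are separate but share a donor entry, and whether tissue was pooled is not stated, so the spread between them may be technical. There was 1 group and no other age, sex, strain or treatment, so values are given per library, and a test on reads compares these libraries and not conditions.

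The proteasome is the chief protease of the cytosol and nucleus and degrades proteins tagged with ubiquitin. Its 20S core is a stack of rings: alpha subunits form the outer rings and the gate, and beta subunits form the inner rings. Only 3 kinds of beta subunit carry an active site. The 19S cap has a base with a ring of ATPases that unfolds the substrate and a lid that removes the ubiquitin chain. In skeletal muscle this system, with its ubiquitin ligases, carries much of the breakdown of contractile proteins during wasting, and in immune cells and under interferon gamma alternative active-site subunits build the immunoproteasome.

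Replicate 1 held 1509380 reads on 85723 transcript models and replicate 2 held 1173233 reads on 86916. Spike-ins took 2.74% of reads in replicate 1 and 0.595% in replicate 2. The 4 skeletal muscle markers Ckm, Acta1, Myh4 and Atp2a1 together took 29.3% of reads in replicate 1 and 29.6% in replicate 2. Markers of other cells took far fewer reads than those of muscle. Sums in replicate 1 were 33.1 CPM for the 4 endothelial, 618 CPM for the 4 fibroblast and 76.2 CPM for the 8 immune markers. In replicate 2 they were 86.1, 655 and 48.6 CPM. Among fibroblast markers, Col1a1, Col3a1 and Dcn had 139, 229 and 242 CPM in replicate 1 and 145, 245 and 251 CPM in replicate 2. These lie above the medians of all genes tested, given below, while Pdgfra, with 7.95 and 13.6 CPM, lies under them. Fewer cells of a type and less RNA per cell cannot be told apart in such bulk samples. A read here comes from 1 cDNA whatever its length, though amplified copies cannot be told apart, so CPM was not divided by length, but long transcripts are harder to read in full.

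The 46 proteasome genes together took 6946 reads in replicate 1, or 4602 CPM, and 4722 reads in replicate 2, or 4025 CPM, with a mean of 4313 CPM ± 408 (SD, n = 2). As a share of all reads this was 0.460% in replicate 1 (95% exact interval 0.449 to 0.471) and 0.402% in replicate 2 (0.391 to 0.414). The intervals do not overlap, and they cover counting error only. The median over the 46 genes was 87.1 CPM in replicate 1 and 66.5 CPM in replicate 2. Over all 9032 genes tested it was 17.2 CPM in replicate 1 and 20.5 CPM in replicate 2. Of the 44 tested proteasome genes, 34 lay above that median in both libraries. Their order was much the same in the libraries: Spearman's rho of CPM over the 46 genes was 0.958, a description over genes that share both libraries. Their CPM bore little relation to transcript length (rho 0.174 over the 45 genes with reads on an annotated transcript).

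**Figure D1:**
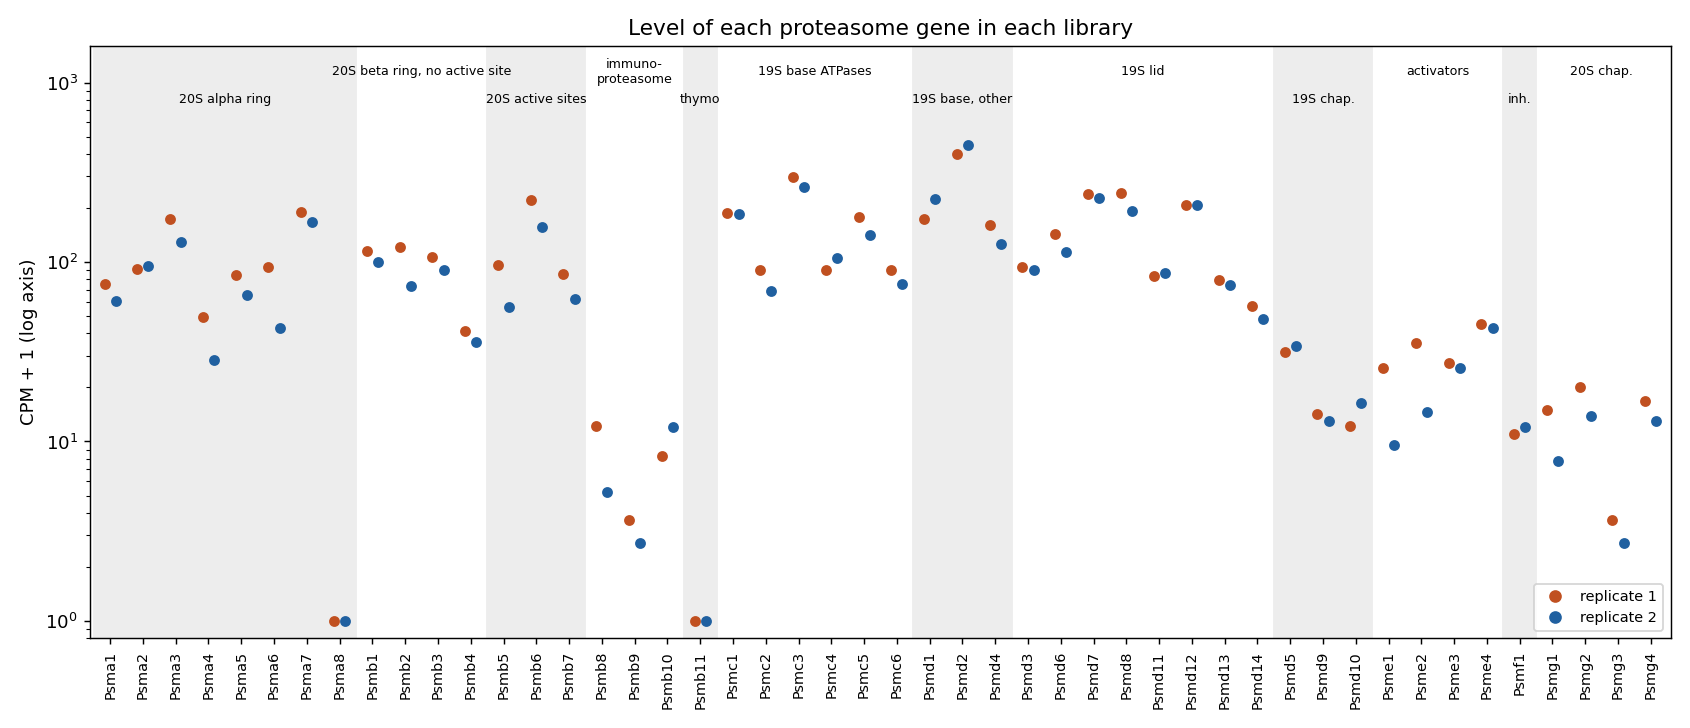
Level of each of the 48 annotated proteasome genes in replicate 1 (red-brown) and replicate 2 (blue), as CPM + 1 on a log axis, grouped by role, 1 point per library. Core and cap subunits lie between 27.3 CPM (Psma4, replicate 2) and 450.0 CPM (Psmd2, replicate 2), while immunoproteasome subunits, chaperones and activators mostly lie lower, and Psma8 and Psmb11 are at 0.

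Among the alpha ring genes, Psma7 was the most read, with 285 reads (189 CPM) in replicate 1 and 196 reads (167 CPM) in replicate 2. Psma3 followed with 262 reads (174 CPM) in replicate 1 and 150 reads (128 CPM) in replicate 2. Psma4 was the least read of the ring, with 73 reads (48.4 CPM) in replicate 1 and 32 reads (27.3 CPM) in replicate 2. The ring's transcripts were thus spread over a wide range in both libraries. Psma1, Psma2, Psma5 and Psma6 lay between, from 74.2 to 92.8 CPM in replicate 1 and from 41.8 to 93.8 CPM in replicate 2. Psma8, whose product replaces an alpha subunit in male germ cells, had no read.

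The beta ring genes without an active site, Psmb1, Psmb2, Psmb3 and Psmb4, gave a sum of 380 CPM in replicate 1 and of 296 CPM in replicate 2. Psmb4 was the lowest of them in both libraries, with 40.4 CPM in replicate 1 and 34.9 CPM in replicate 2. The other three ranged from 105 to 119.9 CPM in replicate 1 and from 72.4 to 98.9 CPM in replicate 2. Over all 14 constitutive core subunits the most read gene had 5.48 times the CPM of the least read in replicate 1 and 6.12 times in replicate 2. The proteins of these rings stand in equal numbers in every core particle.

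The constitutive active sites are Psmb5 (chymotrypsin-like), Psmb6 (caspase-like) and Psmb7 (trypsin-like). Psmb6 led with 334 reads (221 CPM) in replicate 1 and 183 reads (156 CPM) in replicate 2. Psmb5 had 144 reads (95.4 CPM) in replicate 1 and 65 reads (55.4 CPM) in replicate 2. Psmb7 had 128 reads (84.8 CPM) in replicate 1 and 72 reads (61.4 CPM) in replicate 2. In each library Psmb6 was more than 2-fold above the other active-site genes, and the order of Psmb5 and Psmb7 differed between the libraries.

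Their immunoproteasome counterparts were scarce. Psmb8, the counterpart of Psmb5, had 17 reads (11.3 CPM) in replicate 1 and 5 reads (4.26 CPM) in replicate 2. Psmb10, the counterpart of Psmb7, had 11 reads (7.29 CPM) in replicate 1 and 13 reads (11.1 CPM) in replicate 2. Psmb9, the counterpart of Psmb6, had the 4 and 2 reads given above, close to the limit that 3 reads set. Neither Psmb8 nor Psmb10 passed the test between the libraries described further on.

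The 3 immunoproteasome genes made up 5.02% of the reads of all 6 active-site genes in replicate 1 (32 of 638 reads, 95% exact interval 3.46 to 7.01) and 5.88% in replicate 2 (20 of 340 reads, 3.63 to 8.94), a mean of 5.45% ± 0.613 (SD, n = 2). The interval of replicate 2 holds nearly all of that of replicate 1. By pairs, Psmb8 held 10.6% of the reads it shared with Psmb5 in replicate 1 (6.27 to 16.4) and 7.14% in replicate 2 (2.36 to 15.9). Psmb10 held 7.91% of the reads it shared with Psmb7 in replicate 1 (4.02 to 13.7) and 15.3% in replicate 2 (8.40 to 24.7). Psmb9 held 1.18% of the reads it shared with Psmb6 in replicate 1 (0.323 to 3.00) and 1.08% in replicate 2 (0.131 to 3.85), and in replicate 1 this interval lies below those of the other pairs.

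Immune cells express these subunits, and their markers were present at low levels: 6 of the 8 had reads, and Cd3e and Cd79a, of T and B cells, were at 0 in each library. Replicate 1 had 49 reads of Cd74, of antigen-presenting cells, and 51 of Lyz2, of macrophages, against 16 and 25 in replicate 2. Csf1r, also of macrophages, had 11 reads in replicate 1 and 15 in replicate 2. Ptprc, found on white blood cells, had a single read, in replicate 1. What part these cells have in the immunoproteasome reads was not tested. Psmb11, the active site of thymic epithelium, had no read.

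The 19S cap genes were read more than the core genes. Its 17 base and lid genes had a median of 159 CPM in replicate 1 and 124 CPM in replicate 2, which is 1.69 times the median of the 14 constitutive core genes in replicate 1 and 1.81 times in replicate 2. The spread within the cap was also wider, with a ratio of highest to lowest of 7.20 in replicate 1 and 9.60 in replicate 2. Cap transcripts were longer, with a median of 1614 bases against 1162 bases for the core.

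Psmd2, a large scaffold of the base, was the most read proteasome gene in both libraries, with 605 reads (401 CPM) in replicate 1 and 528 reads (450.0 CPM) in replicate 2. Psmd1, the other scaffold of like fold, had 261 reads in each library, or 173 CPM in replicate 1 and 222 CPM in replicate 2. Psmd4, a receptor for ubiquitin chains, had 240 reads (159 CPM) in replicate 1 and 146 reads (124 CPM) in replicate 2. Of these 3, only Psmd1 passed the adjusted p described further on, and the log2 ratio of Psmd2 (-0.17) was near the median of all genes.

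The 6 ATPases of the base form a ring with 1 copy of each. Psmc3 was the most read, with 448 reads (297 CPM) in replicate 1 and 306 reads (261 CPM) in replicate 2. Psmc1 followed with 187 and 184 CPM and Psmc5 with 177 and 139.8 CPM, replicate 1 before replicate 2. Psmc2, Psmc4 and Psmc6 had 135 reads each in replicate 1 (89.4 CPM) and 80, 123 and 87 reads in replicate 2 (68.2, 105 and 74.2 CPM). In both libraries Psmc3, Psmc1 and Psmc5 were thus read more than Psmc2, Psmc4 and Psmc6. The step between these trios was wide in replicate 1 (177 to 89.4 CPM) and narrower in replicate 2 (139.8 to 105 CPM).

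In the lid, Psmd8, a scaffold subunit, had 363 reads (240.5 CPM) in replicate 1 and 224 reads (191 CPM) in replicate 2, and Psmd7, the inactive partner of the deubiquitinase Psmd14, had 360 reads (239 CPM) and 267 reads (228 CPM) in the same order. Psmd12, another scaffold subunit, was close in the libraries, with 207 CPM in replicate 1 and 208 CPM in replicate 2. Psmd14, which cuts the chain off the substrate, was the least read cap gene in both libraries, with 84 reads (55.7 CPM) in replicate 1 and 55 reads (46.9 CPM) in replicate 2. The other lid genes, Psmd3, Psmd6, Psmd11 and Psmd13, lay between 78.8 and 143 CPM in replicate 1 and between 73.3 and 113 CPM in replicate 2.

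The genes of proteins that assemble or regulate the proteasome were mostly read less than the subunits they act on. The 12 genes of chaperones, activators and the inhibitor had a median of 17.6 CPM in replicate 1 and 12.4 CPM in replicate 2. Psmd5, Psmd9 and Psmd10, chaperones of the base, had 30.5, 13.3 and 11.3 CPM in replicate 1 and 33.2, 11.9 and 15.3 CPM in replicate 2. Psmg1, Psmg2 and Psmg4, chaperones of the core, had 13.9, 19.2 and 15.9 CPM in replicate 1 and 6.82, 12.8 and 11.9 CPM in replicate 2. Psmf1, the inhibitor, had 15 reads (9.94 CPM) in replicate 1 and 13 reads (11.1 CPM) in replicate 2.

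Of the activators, Psme4, which caps the core without needing ubiquitin, had 67 reads (44.4 CPM) in replicate 1 and 49 reads (41.8 CPM) in replicate 2. Psme3, which forms a nuclear activator ring, had 40 reads (26.5 CPM) in replicate 1 and 29 reads (24.7 CPM) in replicate 2. Psme1 and Psme2 form together the activator ring that interferon gamma induces. Psme1 had 37 reads (24.5 CPM) in replicate 1 and 10 reads (8.52 CPM) in replicate 2, and Psme2 had 52 reads (34.5 CPM) in replicate 1 and 16 reads (13.6 CPM) in replicate 2. In CPM the partners were thus both higher in replicate 1, while Psme3 and Psme4 were close in the libraries. Centred on transcript length as described further on, their log2 ratios were 1.09 for Psme1, 0.89 for Psme2, 0.30 for Psme3 and 0.80 for Psme4.

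For each gene, its reads against all other reads were set between replicate 1 and replicate 2 in Fisher's exact test (two-sided), with Benjamini-Hochberg adjustment over the 9032 genes tested. A call needed an adjusted p below 0.05 and at least a 2-fold ratio on the scale of CPM + 1, which understates the ratio of low genes. Of the 44 proteasome genes, 3 were called higher in replicate 1, against 2.04% of all genes tested, and 0 were called lower, against 8.24% of all genes. Those called higher were Psma6, Psme1 and Psme2. At any fold, 9 proteasome genes passed the adjusted p as higher in replicate 1, against 6.57% of all genes, and 1 as lower, against 14.8% of all genes. The balance over all genes depends on scaling: 184 genes were called higher and 744 lower by total reads, 375 and 446 with TMM, and 456 and 371 with DESeq2 size factors. The proteasome genes called higher numbered 3 by total reads, 3 with TMM and 5 with DESeq2 size factors, and 0 were called lower under each.

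Psma6 (mm10 chromosome 12, positions 55384222 to 55418454, plus strand) had 140 reads in replicate 1 and 49 reads in replicate 2. Its log2 ratio, replicate 1 over replicate 2, was 1.13 (Fisher's exact test, adjusted p = 8.19e-06). Psme2 (positions 55587441 to 55591113, minus strand) and Psme1 (55578123 to 55581529, plus strand) lie near each other on chromosome 14. Their log2 ratios were 1.28 (Fisher's exact test, adjusted p = 0.00646) for Psme2 and 1.42 (adjusted p = 0.0123) for Psme1. Psmb8, with a log2 ratio of 1.22 on its 17 reads in replicate 1 and 5 in replicate 2, did not pass (Fisher's exact test, adjusted p = 0.170). None of the 3 calls has a replicate check, and all 3 were lost when ratios were centred on genes of like length. There Psma6 fell under 2-fold, Psme1 missed the adjusted p, and Psme2 did both. Over annotated transcripts only, Psme2 alone kept its call.

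The genes that passed the adjusted p under 2-fold were Psmb2 (log2 ratio 0.72), Psmb5 (0.77), Psmb6 (0.50), Psma3 (0.44), Psma4 (0.80) and Psmd8 (0.33), all higher in replicate 1, and Psmd1 (-0.36), lower in replicate 1. Of these 7, 5 are core subunits. By role, 6 of the 14 constitutive core genes passed as higher and none as lower, and of the 17 cap genes 1 passed in each direction. Over all genes, 6.57% passed as higher and 14.8% as lower. The median log2 ratio was 0.40 for the core and 0.10 for the cap, beside 0.24 for all 44 proteasome genes and -0.19 for all 9032 genes.

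Over all genes the log2 ratio fell as the transcript grew longer (Spearman's rho -0.486), and over the 43 tested proteasome genes with reads on an annotated transcript the rho was -0.658. These are descriptions over genes of the same pair of libraries. With each ratio centred on a running median over 100 genes on either side in length, the median was 0.13 for the core, 0.13 for the cap and 0.14 for the 43 proteasome genes together, so core and cap no longer stood apart. The centred log2 ratio was 0.71 for Psma6, 0.89 for Psme2, 1.09 for Psme1 and 1.17 for Psmb8, and the Fisher's exact test on it gave adjusted p = 0.0218, 0.143, 0.113 and 0.325 in that order. Under this centring 33 of the 43 proteasome genes lay above 0, beside 49.8% of all genes. Before centring, Cd74 was also called higher in replicate 1 (log2 ratio 1.19, adjusted p = 0.0117 by Fisher's exact test). Lyz2 (log2 ratio 0.64) and Csf1r (-0.73), the other immune markers tested, were not called. Of the endothelial markers, Kdr (log2 ratio -1.98) and Cldn5 (-1.37) were called lower, also before centring. Centred on length, the log2 ratio was 0.95 for Cd74, under 2-fold, 0.47 for Lyz2 and -0.20 for Csf1r. It was -1.38 for Kdr and -1.45 for Cldn5. Psmb10, the other immunoproteasome gene tested, went the other way from Psmb8. Its log2 ratio was -0.54 (not called), and -0.73 once centred on length. The part of these cells in the values of Psme1, Psme2, Psmb8 and Psmb10 was not tested.

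**Figure D2:**
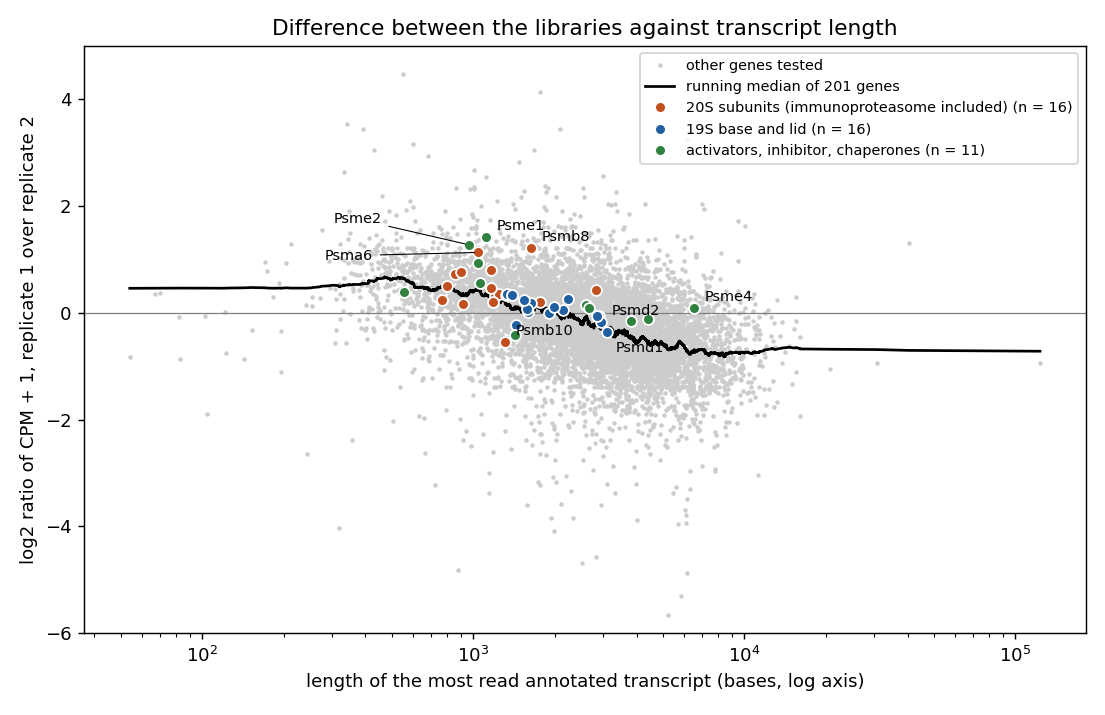
Log2 ratio of CPM + 1, replicate 1 over replicate 2, against transcript length in bases (log axis; the annotated transcript with most reads), with 1 point per gene. The running median of all genes (black) falls with length. Most core genes (red-brown, immunoproteasome included), cap genes (blue) and others (green) lie near or somewhat above it. Psme1, Psme2, Psmb8, Psme4 and Psma6 lie further above, and Psmb10 lies further below.

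Outside the subunit genes, a list of 26 genes of the same pathway was measured, of which 24 were tested. By adjusted p at any fold 4 were higher in replicate 1 and 5 lower, where the shares over all genes were 6.57% and 14.8%. Only Ecpas, which holds cap and core together, was also past 2-fold, with 294 reads (195 CPM) in replicate 1 and 476 reads (406 CPM) in replicate 2. Its log2 ratio was -1.05, and -0.36 once centred on length. Nfe2l1, the transcription factor that raises proteasome genes when proteasomes are inhibited, had 438 reads (290.2 CPM) in replicate 1 and 618 reads (527 CPM) in replicate 2. Its log2 ratio was -0.86 (Fisher's exact test, adjusted p = 4.41e-20), and -0.28 once centred on length. Pomp, the chaperone that matures the core, had 218 reads (144 CPM) in replicate 1 and 87 reads (74.2 CPM) in replicate 2. Sem1, the smallest cap subunit, had 232 reads (154 CPM) and 100 reads (85.2 CPM) in that order. The log2 ratio was 0.95 for Pomp and 0.84 for Sem1, and 0.91 and 0.76 once centred on length. Adrm1, a ubiquitin receptor of the cap, had 157 CPM in replicate 1 and 139.8 CPM in replicate 2, within the range of the Psmd genes. Paaf1, a chaperone of the base, had no read in either library. Pomp was thus read at 5 times or more the level of each Psmg chaperone in both libraries.

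The reads of proteasome genes matched the annotation closely. Annotated transcripts took 86.2% of their reads in replicate 1 (95% exact interval 85.4 to 87.0) and 87.2% in replicate 2 (86.2 to 88.1), against 64.2% and 60.8% of the reads of all annotated genes. Most of that gap lies in models with an unannotated splice site, which took 2.27% of proteasome reads in replicate 1 and 2.54% in replicate 2, against 18.9% and 22.3% over all genes, a share that weights genes by their reads. Gene by gene the gap was smaller: among genes that reached 20 reads in both libraries, the median annotated share was 89.7% in replicate 1 and 92.6% in replicate 2 for 34 proteasome genes, against 81.4% and 83.4% for 4658 genes, and the median share of unannotated splice sites was 2.00% and 2.54% against 2.70% and 3.03%. Models missing the 5′ part took 7.31% in replicate 1 and 7.09% in replicate 2, close to the 7.20% and 7.497% of all genes. They are classed by their introns, so a model that keeps intron 1 also counts here, as in Psmb3. Of the proteasome reads in this class, Psmc2, Psma7 and Psme4 gave 132, 93 and 37 of 508 in replicate 1. In replicate 2 they gave 78, 87 and 33 of 335, so the likeness rests in large part on these genes.

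**Figure D3:**
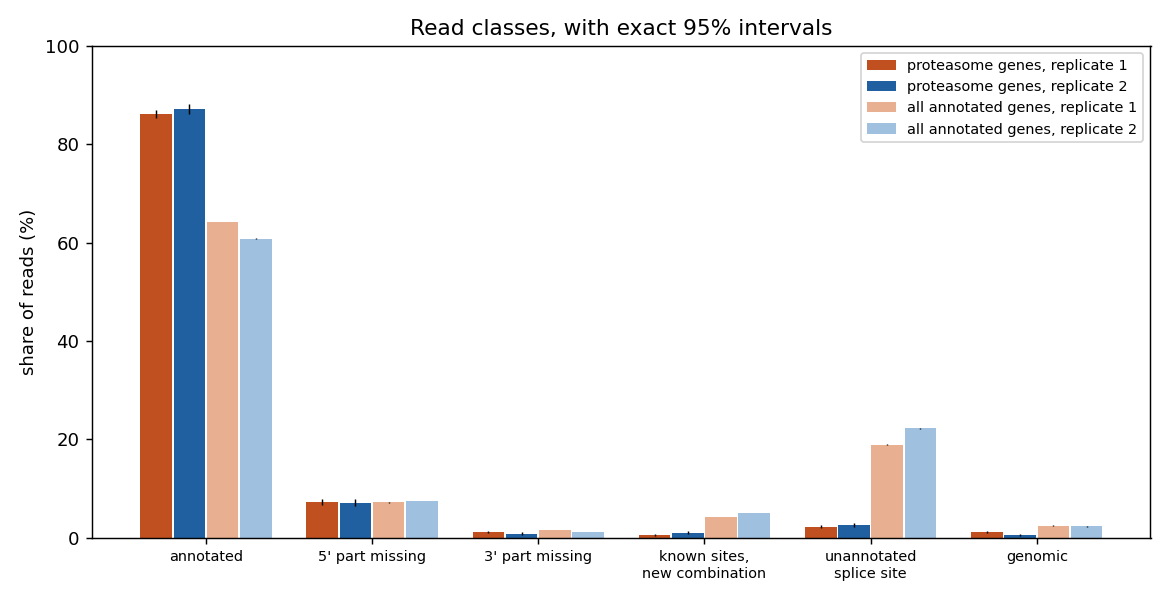
Share of reads in classes of transcript model for the proteasome genes (dark bars) and for all annotated genes (light bars), in replicates 1 and 2. Values are in percent, with exact 95% intervals as lines. Incomplete models outside the classes missing the 5′ part or the 3′ part are not drawn. Annotated transcripts take over 86% of proteasome reads and under 65% of the reads of all genes.

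A model that spans a whole annotated coding sequence with its splice pattern took 87.5% of proteasome reads in replicate 1 (86.7 to 88.3) and 88.7% in replicate 2 (87.7 to 89.6). The ends of a model may be those of the annotation and not of each read, so this counts splice patterns more surely than ends. Pooled over the libraries, the share was lowest for Psme4 (23.3%), the longest transcript of the set at 6491 bases, followed by Psmb10 (58.3%), Psma7 (60.1%), Psmd1 (67.8%) and Psme3 (68.1%). For Psme4 the whole transcript of 47 exons took 17 reads in replicate 1 and 10 in replicate 2. A model of its last 41 exons took 4 and 10 in that order. Psmb10 rests on 24 reads.

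The dominant transcript of a gene, the one with most reads over both libraries, was compared for the same 34 proteasome genes. In each library it was also the most read, with a tie for Psme4 in replicate 2, where Psme4-201 and the model of the last 41 exons had 10 reads each. Its median share was 89.2% in replicate 1 and 91.7% in replicate 2, against 76.0% and 78.4% over the 4658 genes tested, and it was an annotated transcript for 33 of the 34. In 26 genes it held over 80% in both libraries, and in Psmd4 and Psme4 it held under 50% in at least 1 library. By Fisher's exact test, adjusted over 4658 genes, the share differed between the libraries for 1 proteasome gene, Psmd1, against 2.58% of all genes tested, and 4 passed an unadjusted p of 0.05, namely Psmd1, Psmd2, Psma7 and Psme3. Over all genes 479 of 4658 passed the unadjusted p, a share near that of the proteasome genes.

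**Figure D4:**
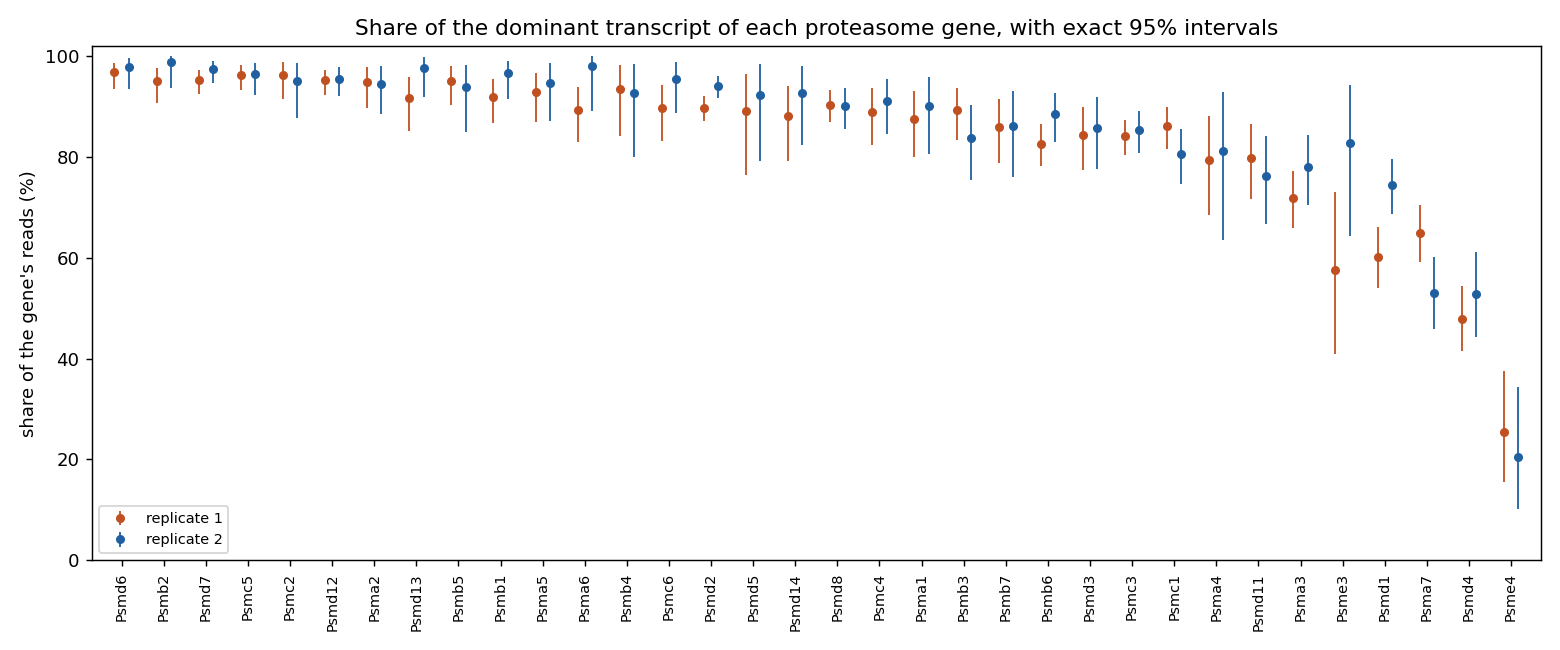
Share of each gene's reads held by its dominant transcript, in percent, for the 34 proteasome genes with enough reads, in replicate 1 (red-brown) and replicate 2 (blue), with exact 95% intervals. Of the 34 genes, 26 lie above 80% in both libraries, and Psmd4 and Psme4 are the lowest.

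Psmd1-201, the full scaffold transcript of 25 exons, held 60.2% of the gene's reads in replicate 1 (157 of 261) and 74.3% in replicate 2 (194 of 261), with adjusted p = 0.0352 by Fisher's exact test. A model of the first 22 exons had 70 reads in replicate 1 (26.8%, 95% exact interval 21.5 to 32.6) and 27 reads in replicate 2 (10.3%, 6.93 to 14.7). These intervals do not overlap. The model holds 88.0% of the coding sequence. Among annotated transcripts Psmd1-201 holds all reads of the gene in both libraries, so that alternative could not show a difference for Psmd1.

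Psma7 had a second model that starts at exon 4 of 7, with 91 reads in replicate 1 (31.9%, 26.6 to 37.7) and 87 reads in replicate 2 (44.4%, 37.3 to 51.6). It holds 53.2% of the coding sequence. The full Psma7-201 held 64.9% in replicate 1 and 53.1% in replicate 2, a difference that did not pass over all genes (Fisher's exact test, adjusted p = 0.204). Over the other alpha ring genes, all models missing the 5′ part together held at most 8.57% in replicate 1 (Psma6) and 2.73% in replicate 2 (Psma2). The model starts at the annotated edge of exon 4, and where single reads began is not in the files used here.

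Psmc2 was the 1 gene whose dominant model was not annotated. A chain of 12 exons, which lacks exon 1 of Psmc2-201, took 130 of 135 reads in replicate 1 (96.3%) and 76 of 80 in replicate 2 (95.0%), and Psmc2-201 with its exon 1 had 0 reads in each. The coding sequence of Psmc2-201 begins in its exon 2, so by its annotated ends the chain spans it whole. RefSeq places a start of the gene at position 21785275 of chromosome 5 (GRCm38.p6) and another at 21786747, inside that exon and beyond the annotated start codon at 21786689, so whether single reads reach the start codon is not known here. Psmc1 had a similar minor model without its exon 1, with 25 reads in each library (8.87% in replicate 1 and 11.6% in replicate 2), and there the lost exon holds the start codon.

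Psmd4 was split between a pair of annotated forms. Psmd4-202 held 115 of 240 reads in replicate 1 (47.9%, 41.4 to 54.4) and 77 of 146 in replicate 2 (52.7%, 44.3 to 61.1). Psmd4-201 held 99 reads in replicate 1 (41.2%, 35.0 to 47.8) and 58 in replicate 2 (39.7%, 31.7 to 48.1). The intervals of the forms overlapped in both libraries, with Psmd4-202 the more read in each. Psmd4-201 carries 9 bases that Psmd4-202 lacks, at the edge of a coding exon at chr3:95033909-95033917 of mm10, minus strand, which keep the reading frame. The spliced transcripts around this point are printed to show the difference, with the 9 bases in capitals.
Psmd4-201: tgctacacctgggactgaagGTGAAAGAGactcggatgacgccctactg
Psmd4-202: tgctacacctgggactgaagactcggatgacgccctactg

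Psma3 also uses a pair of splice sites, 5 bases apart. Psma3-202, which encodes the full subunit, held 188 of 262 reads in replicate 1 (71.8%) and 117 of 150 in replicate 2 (78.0%). Psma3-201, annotated as a target of nonsense-mediated decay, held 21 reads in replicate 1 (8.02%, 5.03 to 11.99) and 8 in replicate 2 (5.33%, 2.33 to 10.2). Loss of the 5 bases shifts the frame and cuts the annotated coding sequence to 120 bases, against 765 bases in Psma3-202. The bases in capitals, at chr12:70983319-70983323 on the plus strand of mm10, are those absent from Psma3-201.
Psma3-202: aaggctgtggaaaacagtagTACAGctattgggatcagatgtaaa
Psma3-201: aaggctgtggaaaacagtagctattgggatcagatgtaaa
Further reads of Psma3 lay in unannotated models of a single exon, 30 in replicate 1 and 11 in replicate 2.

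Other minor forms recurred in both libraries. Psmb6-202, a 2-exon form at the 3′ end of the gene annotated as a retained intron, held 48 reads in replicate 1 (14.4%, 10.8 to 18.6) and 14 in replicate 2 (7.65%, 4.25 to 12.5). Psmd11-214, which has the stop codon of Psmd11-201 but another 3′ end, held 16 reads in replicate 1 (12.9%) and 11 in replicate 2 (10.9%). Psmg4-202, with 3 exons, held 18 of 24 reads in replicate 1 and 8 of 14 in replicate 2, and the 2-exon Psmg4-201 held 6 in each. A model of Psmb3 that keeps intron 1 held 6 reads in replicate 1 (3.77%, 1.40 to 8.03) and 12 in replicate 2 (11.4%, 6.05 to 19.1). Psme3-201 held 23 of 40 reads in replicate 1 and 24 of 29 in replicate 2 (Fisher's exact test, adjusted p = 0.421).

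**Figure D5:**
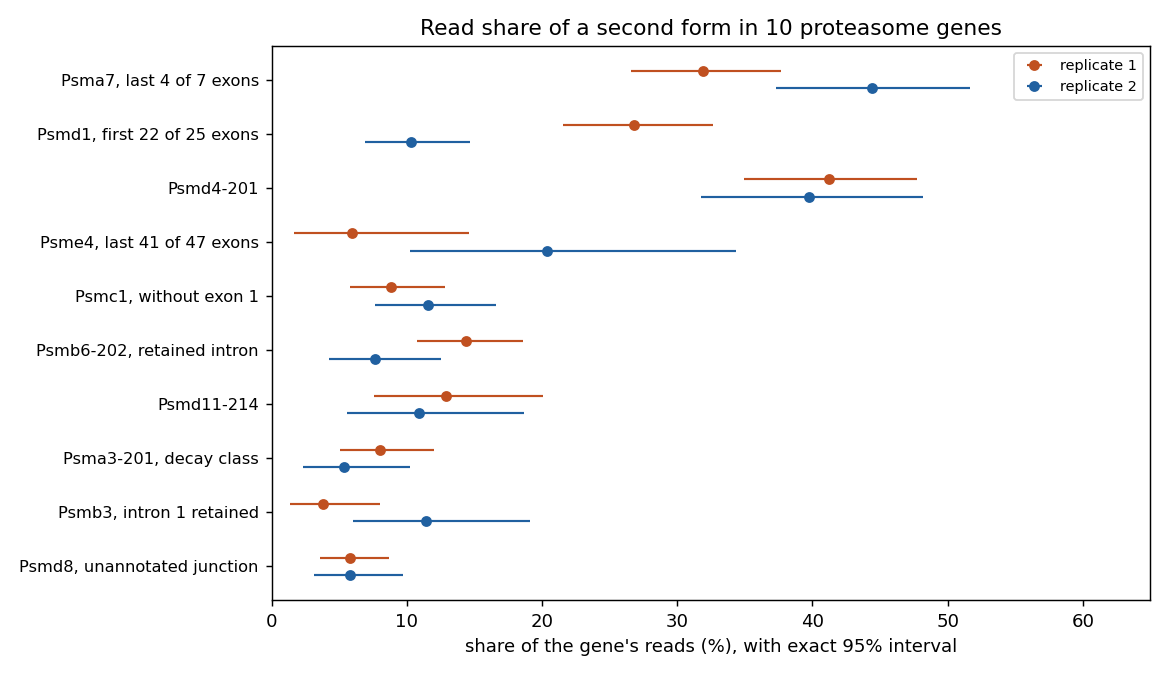
Share of the gene's reads held by a second form of 10 proteasome genes, in percent with exact 95% intervals, in replicate 1 (red-brown) and replicate 2 (blue). The intervals of the Psmd1 model of the first 22 exons do not overlap between the libraries, and those of the Psmd8 form with an unannotated junction nearly coincide.

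Unannotated splicing was rare but in part recurrent. The proteasome genes had 229 chains with an unannotated splice site or a new combination of known sites, on 369 reads over both libraries. Of these, 173 had a single read and 30 were found in both libraries, with 137 reads in 16 genes. The most read was in Psmd8, a lid subunit, with 21 reads in replicate 1 (5.79%, 3.62 to 8.71) and 13 reads in replicate 2 (5.80%, 3.13 to 9.72).

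In the Psmd8 chain the annotated end of exon 1 is joined to an unannotated site inside exon 4, across positions 29177198 to 29180276 of mm10 chromosome 7. The junction removes 2 whole exons and the first 34 bases of exon 4, 210 bases in all of a coding sequence of 867 bases, which is 70 codons and keeps the frame. The next chains had far fewer reads, the second being one of Psmd3 with 3 reads in replicate 1 and 5 in replicate 2. The junction of Psmd8 is printed beside the annotated sequences, 20 bases from each side of the join (exon 1 part chr7:29180277-29180296, exon 4 window chr7:29177178-29177217, minus strand), and capitals mark the run of 2 bases before the join that the bases before the site in exon 4 share.
Psmd8 unannotated junction: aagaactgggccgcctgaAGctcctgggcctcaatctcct
Psmd8-202 exon 1 joined to exon 2: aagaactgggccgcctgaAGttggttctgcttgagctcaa
Psmd8-202 exon 4: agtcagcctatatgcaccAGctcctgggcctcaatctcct
The remaining 8 of the 10 most read such chains, in Psmb3, Psma4, Psmc3, Psmd2, Psma1, Psma3, Psma5 and Psmc1, had 1 to 5 reads per library.

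Promoters were searched for the core of the antioxidant response element, TGACNNNGC on either strand, which Nfe2l1 and its relatives bind. In RefSeq windows of 300 bases (GRCm38.p6, 250 before to 50 after a start), 6 of the 40 proteasome genes with a window held it, or 15.0%, against 13.99% of 27025 genes, so the share is close to that of genes at large. The 6 were Psmb5, Psmb6, Psmc6, Psmd9, Psmd12 and Psme4, and a match describes letters and not a bound site. The matches in a pair of active-site genes are printed, with the motif in capitals, from chr14:54618024-54618052 on the minus strand for Psmb5 and chr11:70525338-70525366 on the plus strand for Psmb6.
Psmb5: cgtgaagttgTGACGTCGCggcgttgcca
Psmb6: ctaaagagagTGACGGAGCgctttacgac

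Some proteasome genes have pseudogene copies in the genome to which reads could be assigned in error. By BLAST, 16 of the 48 genes had 35 annotated pseudogene copies with at least 85% identity over at least 50% of the coding sequence. Of these copies 5 had reads, 10 reads in replicate 1 and 5 in replicate 2, the most being Gm4118, a copy of Psma2, with 5 and 2 in that order. Gm13835, identical to the coding sequence of Psma3, had 3 reads in replicate 1 and 2 in replicate 2, where Psma3 itself had 262 and 150. How reads were split between such copies is not given in the sources used here, so the counts of these genes carry that uncertainty.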

How the data were processed

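Each library came with a deposited table of unnormalized counts, the number of reads the authors assigned to every transcript model, on mm10 with GENCODE M21 (per the README texts). The deposited gene models carry TALON as their source. Not given in the sources used here: aligner, platform, versions, filters, and how reads of near-identical genes were split. Counts were added up by gene, whatever their read class, and divided by the reads of the library (1509380 in replicate 1, 1173233 in replicate 2) to give CPM. Models were matched between libraries by intron chain. SIRV and ERCC reads count in the totals only.

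Levels are means with SD (n = 2). Shares carry exact 95% Clopper-Pearson intervals, and 0 reads were read against 3 reads per library. Intervals and floors cover counting error only, since copies of a molecule cannot be told apart. The labels number the libraries as biological replicates, but whether they come from separate animals is not stated, so their spread may be technical. Fisher's exact tests (scipy 1.17.1) were adjusted over all genes that reached 10 reads in sum, or 20 per library for dominant transcripts, and checked on simulated data. With 1 library a side no model with residual degrees of freedom could be fitted. Log2 ratios are replicate 1 over replicate 2 of CPM + 1. TMM factors came from edgeR 4.0.16, other size factors from DESeq2 1.42.0 (R 4.3.3). Other steps used Python 3.11.15, pandas 2.3.3, numpy 2.4.6, matplotlib 3.10.9 and BLAST 2.17.0. Transcript sequences are those of GENCODE M21 and promoters those of RefSeq (GRCm38.p6), and 8 proteasome genes had no promoter window. A sequence and the result that rests on it are not reported here.

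Genes were named by this rule: all proteasome genes, the 10 unannotated chains with most reads and reads in each library, and a list of 26 pathway genes. The members, lists and alternatives were chosen with earlier results of these data known. Alternatives changed scaling, read and fold minimum, pseudocount, read classes, depth, length centring and the choice of dominant transcript, and left out each library.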

Additional observations from a re-analysis of the deposited data

How the results depend on the processing

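No paired analysis was possible because the study has 1 group. The count of 3 proteasome genes called higher in replicate 1 became 5 with DESeq2 size factors, 9 with no fold minimum, 1 with annotated transcripts only (Psme2), 0 with a 4-fold minimum and 0 after centring on transcript length; TMM, no read minimum, thinning of replicate 1, leaving out incomplete and genomic models, and a pseudocount of 5 left it at 3. The count of 0 called lower became 1 with no fold minimum and was 0 under the other alternatives. Over all genes, those called higher were 184 of 9032 in the main test, 456 with DESeq2 size factors and 593 with no fold minimum. They were 39 with a 4-fold minimum, 101 of 7229 with annotated transcripts only and 152 of 8625 after centring on transcript length. Those called lower were 744 in the main test and 1339 with no fold minimum. The median log2 ratio of 0.24 was 0.43 with TMM, where the median of all genes moved from -0.19 to -0.01, and 0.50 with DESeq2 size factors, where it moved to 0.06; under the other alternatives it lay between 0.14 and 0.25. The summed level of 4313 CPM was 6092 CPM when annotated transcripts alone were counted in genes and totals, since all genes lose more reads than these, and 4025 to 4602 CPM with either library left out. The immunoproteasome share of 5.45% stayed between 5.02% and 5.88%. The annotated share of 86.7% was 89.7% over models with at least 2 reads, and 86.2% to 87.2% with either library left out. The median dominant share of 90.3% was 100% among annotated transcripts only. The 1 gene with a differing dominant share, Psmd1, was lost (0 genes) among annotated transcripts only, which leaves out the incomplete model. Over all genes that alternative called 19 of 3503, against 120 of 4658 in the main test. Depth limits Psmb9, Psmg3, Psma8 and Psmb11 most.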
